A study of Mus musculus with 2 samples.

Results

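The genes described here are 10 of the 27998 genes in the count matrices, and they encode the machinery by which cells load peptides onto major histocompatibility complex (MHC) class II molecules: H2-Aa, H2-Ab1 and H2-Eb1, Cd74, Ciita, H2-DMa, H2-DMb1 and H2-DMb2, and H2-Oa and H2-Ob. The rule lists them by function and sets no threshold on a measured value, and all 10 had a row in the matrices. The study profiled the tibialis anterior (TA), a hindlimb muscle, of C57Bl/6 mice (C57BL/6J in the methods of the study) by droplet scRNAseq (10x Genomics 3′ chemistry, version 3) after injury with notexin, a snake venom toxin that destroys myofibres. Whole muscles were dissociated without sorting for a cell type, and 1 library from 1 mouse was available at day 2 and 1 at day 7 post-injury. The sample labels gave both mice as female and 7 months old, whereas the cell table gave both as male, and as 4 months old at day 2 and 7 months old at day 7. There were no replicates, so day and mouse cannot be told apart, no difference was tested, and every interval below covers counting error only.

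In background terms, H2-Aa with H2-Ab1, and H2-Eb1 with a partner chain that these mice do not make, code for the chains of the surface molecules that show peptides to CD4+ T cells. Cd74 is the invariant chain, which occupies the peptide groove and guides new class II molecules to endosomes, where H2-DM exchanges its remnant for antigenic peptides and H2-O holds H2-DM in check. Ciita is the transcriptional coactivator on which this set of genes depends. Dendritic cells, macrophages and B cells are the professional class II presenting cells, and endothelial and stromal cells of many tissues can take up the programme when exposed to interferon gamma.

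Of the 4836 barcodes called as cells at day 2 and 4889 at day 7, 3178 and 3196 carried a cell type label in the authors' table and passed limits of at least 750 genes, at least 1000 counts and at most 30% mitochondrial counts. Kept cells held 34026345 counts at day 2 (median 9058.5 per cell) and 27620535 at day 7 (median 6583), and the libraries shared 1 kept barcode. Counts were summed over all cells of a label, or of 11 classes built from the 25 labels, and given as CPM, the counts of a gene per 1000000 counts of that sum, so that the number of cells in a class does not set its level. A mixture of cells with high and low levels and a uniform level cannot be told apart in such a sum, and the values per cell are therefore given as well. The 10 genes together made up 1818 CPM of the 3053639 counts in barcodes of 1 to 100 counts at day 2 and 7515 CPM of 4966167 at day 7, a 4.13-fold higher level (95% interval 4.02 to 4.25). These near-empty droplets hold RNA from broken cells, and their composition is called the ambient level below.

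The presenting labels were checked against their markers. In cells labelled Dendritic all 7 dendritic markers were detected on both days, among them Flt3 (79.6 CPM at day 2 and 241 CPM at day 7), the receptor for the dendritic growth factor, and Zbtb46 (14.9 and 19.2 CPM), a transcription factor of classical dendritic cells. The summed dendritic list stood at 804 and 1112 CPM in these cells, below the macrophage list, which stood at 2144 and 2172 CPM there against 14556 and 29398 CPM in the monocyte and macrophage labels. The dendritic list stood at 16.4 CPM at day 2 and 352 CPM at day 7 in the monocyte and macrophage labels, with Zbtb46 at 0 counts at day 2. B cells carried the antigen receptor component Cd79a at 1833 and 2062 CPM, but only 29 and 13 cells had the label, with the B cell list at 3616 CPM at day 2 and 5168 CPM at day 7. At day 2 these B cells also held the neutrophil list at 3837 CPM, above their own list, and the endothelial list at 1269 CPM, while at day 7 the neutrophil list was at 0 counts and the endothelial list at 226 CPM. The part of these foreign markers in the class II values of the B cells was not tested.

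Of the 10 genes, 8 lie within 224.3 kb of chromosome 17 (chr17:34092340-34316674, GRCm38), and Ciita lies on chromosome 16 (chr16:10480059-10528418, plus strand). The promoter stretches of 6 of them are shown because genes of this set that share promoter boxes can be read side by side with their levels. In background terms, class II promoters carry X and Y boxes, bound by RFX and NF-Y complexes that together recruit CIITA. RefSeq windows (GRCm38, 250 bases before to 50 after the gene start) were found for 7 of the 10 genes, without H2-Ab1, Ciita and Cd74. Each line runs 5′ to 3′ on the gene's strand from 126 to 17 bases before its RefSeq start, at chr17:34287840-34287949 (minus strand) for H2-Aa, chr17:34305741-34305850 (plus) for H2-Eb1, chr17:34153065-34153174 (plus) for H2-DMb1, chr17:34145123-34145232 (plus) for H2-DMb2, chr17:34092253-34092362 (plus) for H2-Oa and chr17:34238779-34238888 (plus) for H2-Ob. The gene positions above are from another annotation (GENCODE), with different starts for some genes. By it H2-Oa begins at 34092340 and H2-DMb1 at 34153072, inside their stretches, and H2-DMb2 at 34143307, upstream of its stretch. Capitals mark exact matches, on either strand, to CTGATTGG (an extended Y box), to CCAAT or its reverse complement ATTGG, which CTGATTGG contains, and to AACNGATG (an X box stretch, N being any base).
H2-Aa: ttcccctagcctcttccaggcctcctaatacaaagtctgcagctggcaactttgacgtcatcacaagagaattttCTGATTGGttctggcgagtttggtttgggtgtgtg
H2-Eb1: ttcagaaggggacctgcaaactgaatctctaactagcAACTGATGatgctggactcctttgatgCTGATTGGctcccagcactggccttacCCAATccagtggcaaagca
H2-DMb1: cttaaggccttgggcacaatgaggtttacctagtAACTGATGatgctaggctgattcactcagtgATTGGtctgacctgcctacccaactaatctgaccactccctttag
H2-DMb2: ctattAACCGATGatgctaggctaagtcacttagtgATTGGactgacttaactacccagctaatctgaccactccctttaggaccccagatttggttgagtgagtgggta
H2-Oa: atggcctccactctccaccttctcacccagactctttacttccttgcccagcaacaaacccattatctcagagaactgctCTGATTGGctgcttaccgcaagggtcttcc
H2-Ob: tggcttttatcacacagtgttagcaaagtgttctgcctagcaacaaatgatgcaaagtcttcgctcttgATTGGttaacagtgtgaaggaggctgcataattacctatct
H2-Eb1, H2-DMb1 and H2-DMb2 held an AACNGATG match with an ATTGG 30, 31 and 31 bases downstream. A pair spaced 29 to 32 bases apart was found in 5 of the 32851 windows in the table (0.0152%), the others being H2-Eb2, a further class II gene, and BC051142. That range was not planned in advance and encloses the spacings of the members, so the share is a description and no measure of rarity. On their own, CTGATTGG was in 4.10% of windows, CCAAT in 37.4% and AACNGATG in 2.32%. H2-Aa and H2-Oa held CTGATTGG without an AACNGATG match, and H2-Ob held ATTGG alone. The window of H2-DMa, not printed, held a lone ATTGG 198 bases before the start, and neither of the longer letter strings. These matches are letters in a window and no measure of binding.

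The summed level of the 10 genes separated the labels by orders of magnitude. At day 2 the Dendritic label stood at 46281 CPM, the M2 macrophages with high Cx3cr1 at 22438 CPM, the B cells at 16598 CPM and the Cxcl10+ monocytes at 6291 CPM. Of the 2484 counts of the 38 Cxcl10+ monocytes, 1005 lay in 1 barcode, without which (a choice made after seeing the data) the label stood at 3917 CPM, and its median cell held 0.0553% of its counts in the 10 genes. The M1 macrophages followed at 3198 CPM, the M2 macrophages with low Cx3cr1 at 2921 CPM, the patrolling monocytes at 1745 CPM and the inflammatory monocytes at 1702 CPM. The last 2 neighbours, patrolling and inflammatory monocytes, were close to each other and just below the ambient level. At day 7 the order had changed, with the M2 macrophages with high Cx3cr1 (67682 CPM) and the inflammatory monocytes (61511 CPM) above the Dendritic label (52860 CPM). The Dendritic value pools subsets described further on, from 76692 CPM in type 2 classical cells, above both of these labels, to 6725 CPM in plasmacytoid cells. The Cxcl10+ monocytes (47434 CPM), the M2 macrophages with low Cx3cr1 (40437 CPM), the M1 macrophages (38258 CPM) and the patrolling monocytes (22916 CPM) came next, all above the B cells (19966 CPM). Among labels with at least 20 cells, 6 of 18 were above the ambient level at day 2, and 7 of 23 at day 7, namely the Dendritic label and all 6 monocyte and macrophage labels. The 13 B cells of day 7 were above it as well.

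**Figure D1:**
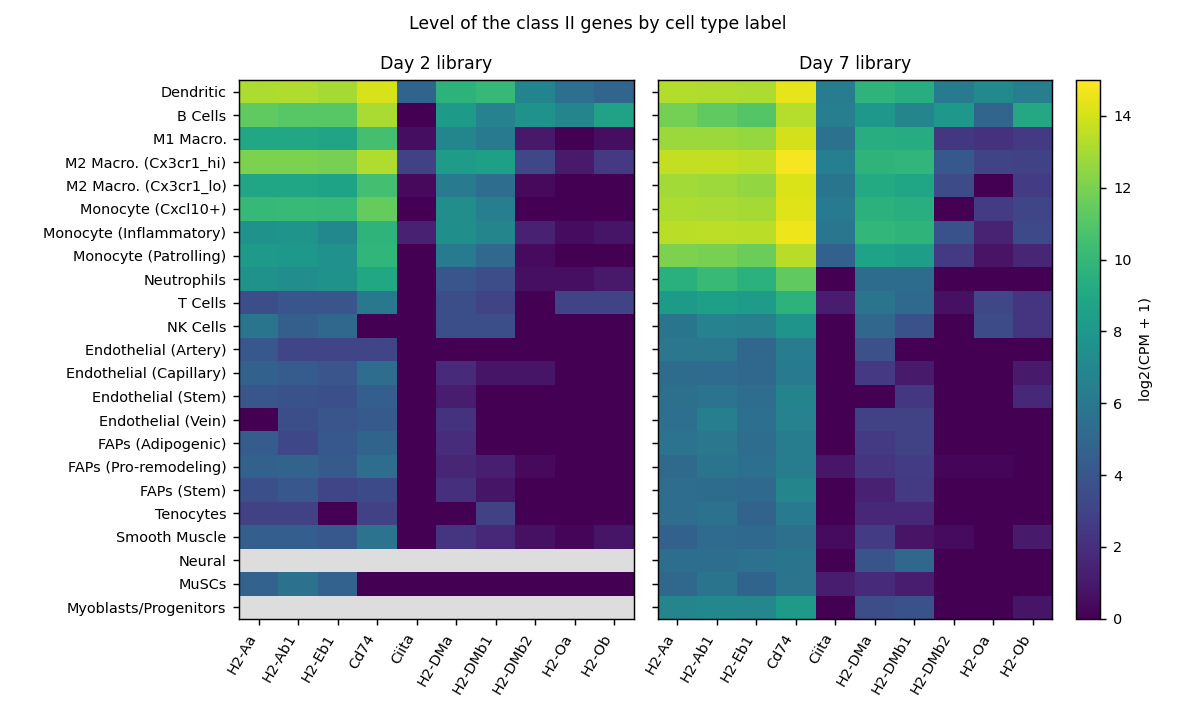
Level of each of the 10 genes (columns) in each cell label (rows) in the day 2 and day 7 libraries, as log2(CPM + 1) on a colour scale from dark (low) to bright (high), with labels of under 10 cells in grey. Bright squares of surface chains and Cd74 lie in the Dendritic and B cell labels and the M2 macrophages with high Cx3cr1 on both days and extend over all 6 monocyte and macrophage labels at day 7, while H2-Oa, H2-Ob and H2-DMb2 stay dark outside the Dendritic and B cell labels.

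**Figure D2:**
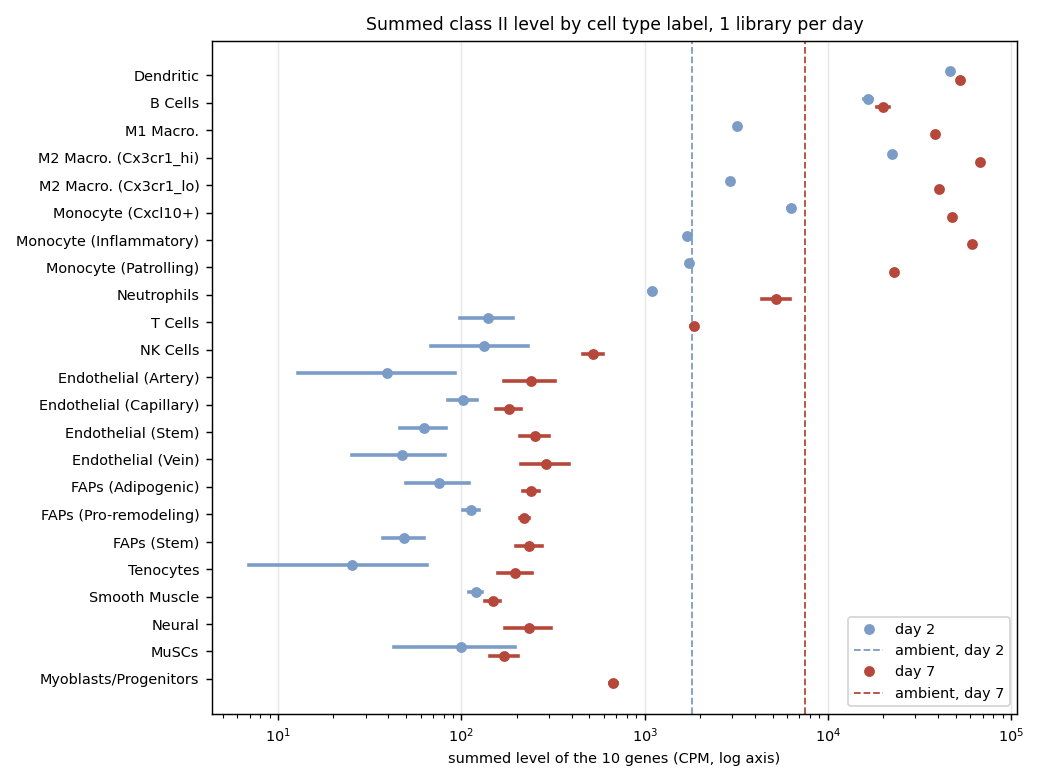
Summed level of the 10 genes per cell label (labels of at least 10 cells) at day 2 and day 7 in CPM on a log axis, as points with 95% counting intervals, with the ambient level of each day as a dashed line. At day 2, 6 labels lie above that day's line, and at day 7 the Dendritic, B cell and all 6 monocyte and macrophage labels lie above theirs, while endothelial, FAP (fibro-adipogenic progenitor) and muscle labels lie far below both lines.

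Summed over monocytes and macrophages, whose labels differed in number between days, the surface chains were more than 10 times as high at day 7 as at day 2, whereas summed over the Dendritic label, whose subsets differed in number between days, they were near equal on both days. H2-Aa, the alpha chain of the I-A molecule, stood at 621 CPM in the 1292 monocytes and macrophages of day 2 and at 7800 CPM in the 757 of day 7, a ratio of 12.6 (12.3 to 12.8). Its partner H2-Ab1 stood at 620 and 7740 CPM, a ratio of 12.5 (12.2 to 12.8). H2-Eb1, the beta chain of I-E, stood at 536 and 7088 CPM, a ratio of 13.2 (12.9 to 13.5). The ratios of the 3 chains thus lay close together. By label they were far apart, as the ratio of H2-Aa was 2.99 in the M2 macrophages with high Cx3cr1 (82 and 159 cells), 8.52 in Cxcl10+ monocytes, 13.6 to 16.4 in M1 macrophages, patrolling monocytes and M2 macrophages with low Cx3cr1, and 53.2 in inflammatory monocytes (276 and 84 cells). Cd74 stood at 1775 and 18496 CPM, a ratio of 10.4 (10.3 to 10.6), below those of the chains. Cd74 accordingly made up 50% of the counts of these 4 genes at day 2 and 45.0% at day 7 in monocytes and macrophages. Its part was 43.7% on both days in the M2 macrophages with high Cx3cr1, and 39.7% and 44.2% in dendritic cells, the opposite direction. In B cells its part was 55.7% on both days.

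In the 170 and 145 dendritic cells H2-Aa stood at 9094 CPM at day 2 and 9709 CPM at day 7, a ratio of 1.07 (1.04 to 1.09). H2-Ab1 stood at 9532 and 9630 CPM, a ratio of 1.01 (0.986 to 1.03), which is not a difference beyond counting error. H2-Eb1 stood at 8028 and 9131 CPM (1.14, 1.11 to 1.17) and Cd74 at 17561 and 22519 CPM (1.28, 1.26 to 1.30). These small ratios depended on the scaling. With size factors from all genes in place of total counts, the ratios of H2-Aa and H2-Ab1 fell on the other side of 1. They also depended on the subsets pooled in the label. In type 2 classical dendritic cells (74 and 40 cells) H2-Aa stood at 8913 CPM (8727 to 9102) at day 2 and 13581 CPM (13149 to 14024) at day 7, H2-Eb1 at 7978 and 13603 CPM, and Cd74 at 17601 and 32549 CPM, while low plasmacytoid cells numbered 4 and 19. Cells with markers of several subsets (29 and 24 cells) went the other way. There H2-Aa stood at 11338 and 5101 CPM, H2-Eb1 at 10295 and 4349 CPM, and Cd74 at 21786 and 13809 CPM. Summed over the 10 genes the dendritic ratio was 1.14 (1.13 to 1.15) and that of monocytes and macrophages 11.3 (11.2 to 11.4).

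A gene was counted as higher or lower when its ratio was at least 2-fold in that direction, among genes with at least 20 counts over both days. A count under 3 on the lower side was raised to 3 first. By this rule all 10 genes were higher at day 7 in monocytes and macrophages, where 19.3% of the 11318 genes with enough counts were higher and 12.8% lower, and none of the 10 was lower. Ciita, H2-Oa and H2-Ob had under 20 counts at day 2 and entered only through day 7, which largely set their count as higher. In dendritic cells 3 of 10 were higher (Ciita, H2-Oa and H2-Ob), beside 13.6% of 8138 genes, and 0 were lower, beside 8.44%. With size factors the calls over all genes in dendritic cells were 872 higher and 947 lower in place of 1110 and 687, with the calls of the 10 genes as before. The median log2 ratio of the 10 genes was 3.51 in monocytes and macrophages, where all genes had a median of -0.02, and 0.14 in dendritic cells, where all genes had 0.05.

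B cells are given side by side, as only 29 and 13 cells were available. H2-Aa stood at 2548 CPM at day 2 and 3671 CPM at day 7, H2-Ab1 at 2155 and 2570 CPM, H2-Eb1 at 2155 and 2033 CPM, and Cd74 at 8631 and 10421 CPM. Their summed level was 0.378 of the dendritic level at day 7.

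Ciita, the coactivator, had the highest ratio between days of the 10 genes in monocytes and macrophages, although the interval of H2-Oa, with 2 counts at day 2, overlapped its own. It stood at 0.849 CPM at day 2 (14 counts in 13 of 1292 cells) and 53.2 CPM at day 7 (400 counts in 268 of 757 cells), a ratio of 62.6 (36.9 to 116). The share of these cells with a Ciita count was 1.01% at day 2 and 35.4% at day 7. With each cell thinned to 2000 counts the shares were 0.155% and 12.9%, so that the difference was also present at matched depth. The median depths were 11696 and 8546 counts, and in endothelial cells, at 6104.5 and 4217 counts, no cell had a Ciita count on either day. Of the labels, the M2 macrophages with high Cx3cr1 already held Ciita in 6.10% of cells at day 2 (6.91 CPM) and in 44.7% at day 7 (86.4 CPM). The inflammatory monocytes stood at 1.59 and 57.5 CPM, and the patrolling monocytes at 0 counts and 24.4 CPM.

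In dendritic cells Ciita stood at 27.9 CPM at day 2 (60 counts) and 78.9 CPM at day 7 (82 counts), a ratio of 2.82 (2.00 to 4.01), although the surface chains summed over the label were near equal. A count was found in 25.3% of dendritic cells at day 2 and 31.0% at day 7. Dendritic cells were 32.9 times (18.2 to 63.7) above monocytes and macrophages in Ciita at day 2 and 1.48 times (1.16 to 1.89) at day 7. B cells had 0 Ciita counts at day 2 and 3 at day 7 (84.7 CPM, 17.5 to 248), too few to read a difference from.

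DMDO
Of the peptide editor, H2-DMa and H2-DMb1 were higher at day 7 in monocytes and macrophages, though by less than the surface chains. H2-DMa, the alpha chain, stood at 122 and 669 CPM (5.49, 5.21 to 5.79), and H2-DMb1, a beta chain, at 82.9 and 634 CPM (7.65, 7.21 to 8.13). In dendritic cells H2-DMa stood at 814 and 849 CPM (1.04, 0.960 to 1.13). H2-DMb1 went the opposite way there, with 1043 CPM at day 2 and 644 CPM at day 7 (0.617, 0.565 to 0.673). By subset the difference was not uniform, as H2-DMb1 stood at 756 CPM on both days in type 1 classical cells (56 and 170 counts) and at 1112 CPM (1047 to 1180) and 900 CPM (791 to 1019) in type 2 classical cells, but at 755 and 113 CPM in mature cells and at 1189 and 548 CPM in cells with markers of several subsets. Dendritic cells therefore held 12.6 times as much H2-DMb1 as monocytes and macrophages at day 2, while the ratio at day 7 was 1.02 (0.935 to 1.10), an interval that held 1.

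The second beta chain, H2-DMb2, kept a narrower distribution. It stood at 110 and 75.1 CPM in dendritic cells (0.683, 0.522 to 0.886), at 1.21 and 7.31 CPM in monocytes and macrophages (6.03, 3.56 to 10.6), and at 212 and 254 CPM in B cells. The ratio of H2-DMb2 to H2-DMb1 counts was 2.10 at day 2 (0.947 to 4.99, 21 to 10 counts) and 2.25 at day 7 (9 to 4 counts) in B cells. It was 0.105 and 0.117 in dendritic cells and 0.0146 and 0.0115 in monocytes and macrophages, an order that held on both days. The split between these neighbouring paralogues is uncertain, since 19.0% of the 58-base words in the last 500 bases of H2-DMb1 also occur in H2-DMb2, while none of those in the last 500 bases of H2-DMb2 occur in H2-DMb1.

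H2-Oa and H2-Ob, the chains of the H2-DM inhibitor, were higher at day 7 in dendritic cells. H2-Oa stood at 42.8 CPM (92 counts) at day 2 and 140 CPM (146 counts) at day 7, a ratio of 3.28 (2.51 to 4.30). H2-Ob stood at 28.9 CPM (62 counts) and 84.7 CPM (88 counts), a ratio of 2.93 (2.10 to 4.13). Monocytes and macrophages held little of either on both days, with 2 and 25 counts of H2-Oa (0.121 and 3.32 CPM, a ratio of 27.4, 6.83 to 239) and 9 and 38 counts of H2-Ob (0.546 and 5.05 CPM, a ratio of 9.26, 4.40 to 21.8). Both genes passed the rule for higher genes in this class, from levels close to 0 and with ambient levels of 3.02 CPM for H2-Oa and 5.24 CPM for H2-Ob at day 7. B cells held H2-Ob at 393 CPM (39 counts) and 537 CPM (19 counts), which at day 7 was 6.34 times (3.64 to 10.5) the dendritic level and 106 times (57.8 to 189) that of monocytes and macrophages. Their H2-Oa was at 111 CPM (11 counts) at day 2 and rested on 1 count at day 7.

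The ratio of H2-O counts (H2-Oa with H2-Ob) to H2-DM counts (H2-DMa, H2-DMb1 and H2-DMb2) is a quantity of counts at the 3′ ends of different transcripts, so that it can be compared between cells but is not a ratio of molecules. In dendritic cells it was 0.0365 at day 2 (0.0308 to 0.0428, 154 to 4224 counts) and 0.144 at day 7 (0.125 to 0.165, 234 to 1629 counts). In monocytes and macrophages it was 0.00324 (11 to 3395 counts) and 0.00639 (63 to 9857 counts). In B cells it was 0.833 (0.561 to 1.23) and 0.909 (0.471 to 1.75). The intervals of the 3 classes did not overlap on either day, and all 6 monocyte and macrophage labels lay between 0.0037 and 0.00852 at day 7.

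**Figure D3:**
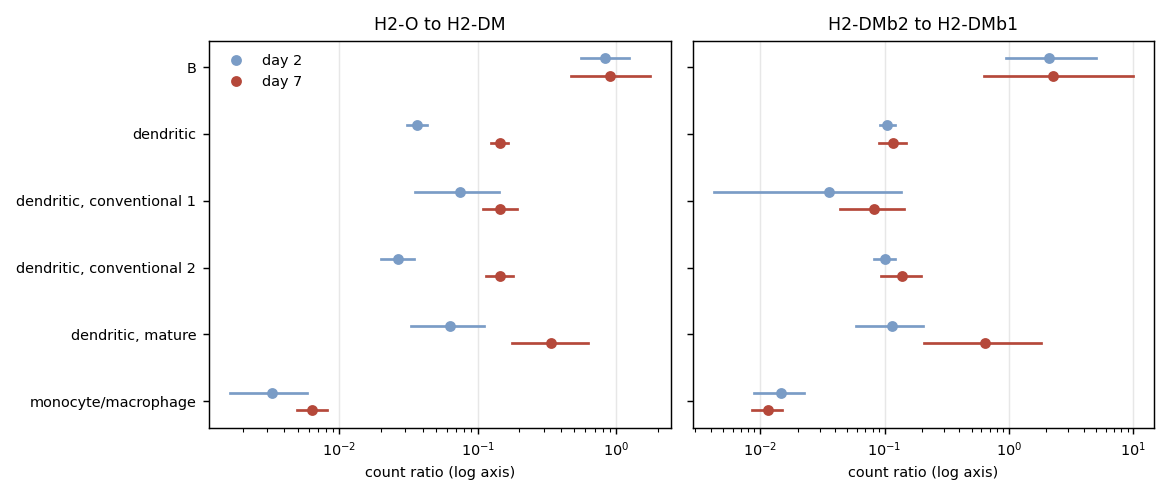
Ratio of H2-O to H2-DM counts (the first panel) and of H2-DMb2 to H2-DMb1 counts (the second panel) in B cells, dendritic cells with 3 of their subsets (type 1 and type 2 conventional, mature), and monocytes and macrophages at day 2 and day 7, on log axes, points with 95% counting intervals. B cells have the highest points and monocytes and macrophages the lowest in both panels, and the dendritic H2-O to H2-DM ratio moves from 0.0365 to 0.144.

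Counted per cell, most monocytes and macrophages were below 1% of their counts in the 10 genes at day 2 and above it at day 7. The share of cells at or above 1% was 10.2% at day 2 (132 of 1292, 8.62% to 12%) and 86.8% at day 7 (657 of 757, 84.2% to 89.1%), and the median cell moved from 0.0471% to 4.56%. Among inflammatory monocytes 10 of 276 cells were at or above 1% at day 2 and 78 of 84 at day 7, and among patrolling monocytes 7 of 186 and 96 of 136. The M2 macrophages with high Cx3cr1 stood apart at day 2, with 44 of 82 cells (53.7%) at or above 1%, and reached 158 of 159 at day 7. Dendritic cells had 143 of 170 cells (84.1%) and 120 of 145 (82.8%) at or above 1%, with medians of 4.83% and 5.79% and a wider middle range at day 7 (25th to 75th percentile 2.25% to 6.34% at day 2 and 1.60% to 7.26% at day 7). B cells had 25 of 29 and 11 of 13 cells above the line, at lower medians of 1.86% and 2.09%.

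**Figure D4:**
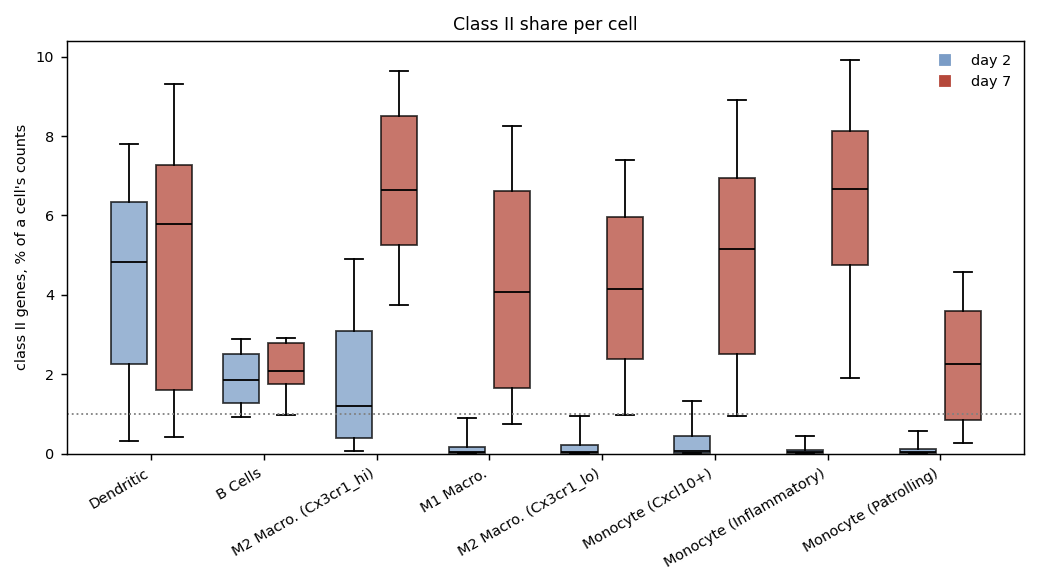
Percent of a cell's counts in the 10 genes, for the Dendritic, B cell, monocyte and macrophage labels on each day, on a linear axis, with boxes from the 25th to the 75th percentile, a line at the median, whiskers at the 10th and 90th percentiles and a dotted line at 1%. Monocyte and macrophage boxes lie mostly below the dotted line at day 2 and above it at day 7, where 86.8% of these cells are at or above it.

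The 132 monocytes and macrophages at or above 1% at day 2 held 70.8% of the class's counts of the 10 genes, including 9 of its 14 Ciita counts. The dendritic marker list was at 53.6 CPM in these cells and at 12 CPM in the rest of the class. At day 7 the order was the opposite, with 323 CPM in cells at or above 1% and 484 CPM in the rest. For single barcodes a narrower dendritic list was used, namely Flt3, Zbtb46, Xcr1, Clec9a, Cd209a and Ccr7, without Itgax. Barcodes with at least 2 counts of this narrower list made up 1.01% of monocytes and macrophages at day 2 and 3.04% at day 7, with 10 of 84 among the inflammatory monocytes of day 7. Without these barcodes, a choice made after seeing the data, the log2 ratio between days for the summed genes was 3.56 in place of 3.50.

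The class that held most of the class II counts differed between the libraries. Dendritic cells held 59.7% of the 166516 counts of the 10 genes at day 2 and 14.3% of the 383266 at day 7, and monocytes and macrophages 37.2% and 83.4%. Over the same interval dendritic cells made up 5.35% and 4.54% of kept cells, and monocytes and macrophages 40.7% and 23.7%. Ciita followed the sum, with 81.1% of 74 counts in dendritic cells at day 2 and 81.0% of 494 counts in monocytes and macrophages at day 7. H2-DMb2, H2-Oa and H2-Ob did not, since dendritic cells still held 53.8%, 76.4% and 55.0% of their counts at day 7. B cells held 33.1% of H2-Ob counts at day 2 and 11.9% at day 7, from 29 and 13 cells.

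**Figure D5:**
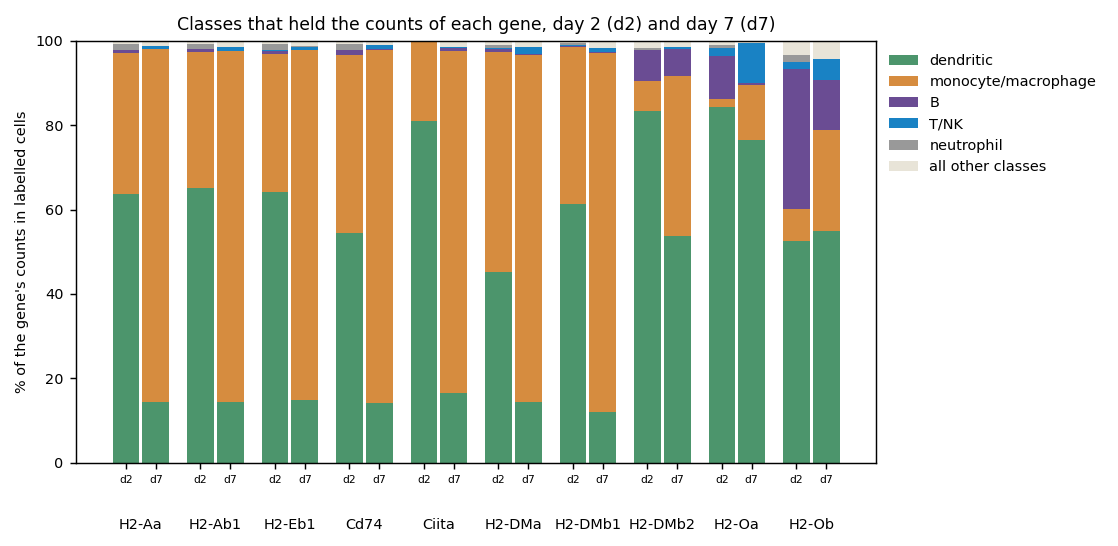
Percent of each gene's counts over all kept cells that lay in each of 5 immune cell classes and in all other classes together, as stacked bars for day 2 (d2) and day 7 (d7). Monocytes and macrophages take 42.2% of Cd74 counts at day 2 and 83.7% at day 7, while dendritic cells keep the larger part of H2-DMb2, H2-Oa and H2-Ob.

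Endothelial and stromal cells stood far below the presenting cells on both days. At day 2 the summed level was 79.6 CPM in 336 endothelial cells (193 counts) and 92.2 CPM in 231 stromal cells (488 counts). Dendritic cells were above endothelial cells by 582-fold (505 to 673), B cells by 209-fold (180 to 243) and monocytes and macrophages by 47.2-fold (41.0 to 54.7). Against stromal cells the ratios were 502 (459 to 550), 180 (163 to 199) and 40.7 (37.3 to 44.6), and a single barcode, without which stromal cells stood at 42.0 CPM, held 267 of the stromal counts. At day 7 endothelial cells stood at 217 CPM and stromal cells at 224 CPM. Dendritic cells were then above endothelial cells by 244-fold (220 to 271), monocytes and macrophages by 196-fold (177 to 218) and B cells by 92.0-fold (81.0 to 105), and above stromal cells by 236-fold (225 to 247), 189-fold (181 to 198) and 89.0-fold (81.5 to 97.0).

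In endothelial cells on both days and in stromal cells at day 2, H2-Aa, H2-Ab1, H2-Eb1 and Cd74 were the 4 genes with at least 20 counts of their own, and in stromal cells at day 7 H2-DMa and H2-DMb1 joined them. The other genes entered through the presenting class alone, where they are high, so that their count as higher was largely set by the filter, and the numbers that follow are a description. Gene by gene, with the same 2-fold rule, all 10 genes were higher in dendritic than in endothelial cells at day 2 (15% of all genes with enough counts) and day 7 (15.5%), and in dendritic than in stromal cells at day 2 (16%) and day 7 (17.3%). Monocytes and macrophages exceeded endothelial cells in 6 of 7 genes with enough counts at day 2 (15.8% of all genes), without H2-DMb2, and in 9 of 10 at day 7 (15.9%), without H2-Oa, whose ratio was at least 1.86. They exceeded stromal cells in 7 of 7 genes at day 2 (19.2%) and 10 of 10 at day 7 (16.1%). B cells exceeded endothelial cells in 7 of 7 genes at day 2 (15.8%) and 5 of 5 at day 7 (16.3%), and stromal cells in 7 of 7 at day 2 (24%) and 6 of 6 at day 7 (20.6%).

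Ciita was at 0 counts in all endothelial cells on both days, 0 of 336 and 0 of 333 cells, which, at the floor of 3 cells, allows shares of cells with a count of up to 0.893% and 0.901%. Dendritic cells were therefore at least 22.6-fold higher than endothelial cells in Ciita at day 2 and at least 44.1-fold higher at day 7, and monocytes and macrophages at least 29.7-fold higher at day 7. Stromal cells had 0 Ciita counts at day 2 and 5 counts in 3 of 853 cells at day 7 (0.582 CPM), below the ambient level of 8.86 CPM. H2-Oa was also at 0 counts in endothelial cells on both days.

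Both classes were nevertheless higher at day 7 than at day 2. In endothelial cells H2-Aa stood at 18.1 and 42.9 CPM (2.37, 1.60 to 3.52), H2-Ab1 at 15.7 and 48.3 CPM (3.08, 2.07 to 4.66), H2-Eb1 at 13.2 and 35.2 CPM (2.67, 1.71 to 4.24) and Cd74 at 29.7 and 82.8 CPM (2.79, 2.09 to 3.76). These 4 were the members with enough counts and all 4 were higher, beside 14.9% of 9616 genes, with 0 lower beside 9.5%. In stromal cells 4 of 6 members with enough counts were higher (H2-Ab1, H2-Eb1, Cd74 and H2-DMb1), beside 25.5% of 11955 genes, and 0 were lower, beside 13.7%. With size factors the stromal calls over all genes were 2478 higher and 2254 lower in place of 3048 and 1640. The median log2 ratio of the members was 1.45 in endothelial cells, where all genes had 0.06, and 1.33 in stromal cells, where all genes had 0.21. H2-DMa and H2-DMb1 had under 20 stromal counts at day 2 and entered through day 7.

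The ambient level of the 10 genes was 4.13-fold higher at day 7, more than the endothelial ratio of 2.73 (2.28 to 3.26) or the stromal ratio of 2.43 (2.20 to 2.69). As a percent of the ambient level, endothelial cells stood at 4.38% at day 2 and 2.89% at day 7, and stromal cells at 5.07% and 2.99%. Immune genes that endothelial and stromal cells are not known to make (Tyrobp, Fcer1g, Lyz2, C1qa, S100a8, S100a9, Laptm5 and Coro1a) had medians of 3.94% and 2.60% in endothelial cells and 4.54% and 3.27% in stromal cells. The 8 genes ranged widely, from 1.20% to 5.89% at day 2 and 0% to 16.9% at day 7 in endothelial cells. In stromal cells they ranged from 1.10% to 10.1% and 2.41% to 7.70%. The class II percentages lay within these ranges in both classes on both days. In the authors' ambient-corrected matrices the summed endothelial level was 23.5 CPM at day 2 and 4.25 CPM at day 7, the opposite direction, and the stromal level 52.6 and 72.8 CPM. These comparisons turned for stromal cells when the barcode with the most counts was left out on each day, a choice made after seeing the data. That barcode held 267 of the 488 stromal counts at day 2, and without it the stromal ratio was 4.86 in place of 2.43 (log2 2.28 in place of 1.28), above the ambient ratio, and the stromal percent of the ambient level was 2.31% at day 2 and 2.72% at day 7. In endothelial cells, where 1 barcode held 54 of the 193 counts at day 2, the ratio without it was 3.61 (log2 1.85 in place of 1.45), below the ambient ratio, and the percent of the ambient level was 3.20% and 2.80%. The percentages of the 8 immune genes were not recomputed without these barcodes.

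The share of cells with at least 1 count of any of the 10 genes was 32.1% and 56.2% in endothelial cells (median depths 6104.5 and 4217 counts) and 58.0% and 71.9% in stromal cells (23022 and 8429 counts). In myogenic cells, which are not known as class II presenting cells at rest, it was 22.7% and 68.3% (2574.5 and 6793 counts). With cells thinned to 2000 counts the day 7 shares were 29.4% in endothelial, 31.1% in stromal and 26.4% in myogenic cells and 35.1% in myofibre nuclei. At day 2 they were 13.9%, 9.17% and 30.8% in the first 3 of these. Thinning left out 4 and 10 endothelial, 2 and 21 stromal, 9 and 5 myogenic and, at day 7, 2 myofibre cells with fewer counts. At day 2 the endothelial and stromal shares lay below the myogenic share, which rested on 13 cells, and at day 7 they lay above the myogenic share and below the myofibre share. No expression is read from shares of this size. No endothelial cell reached 1% of its counts in the 10 genes on either day, the highest being 0.238% and 0.308%, and 0 of 231 and 2 of 853 stromal cells did. The 2 stromal barcodes held 326 of the 1929 stromal counts of day 7 and carried the macrophage list at 3941 CPM, against 99.4 CPM in the rest.

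In several of the remaining classes few barcodes held a large part of the counts. The T and NK labels of day 2 held basophil and mast cell markers at 1661 CPM, endothelial markers at 1146 CPM and macrophage markers at 1011 CPM, above their own list at 496 CPM, so that the days are given side by side. T and NK cells stood at 138 CPM at day 2 (50 counts) and 1545 CPM at day 7 (3270 counts). Of the 404 T and NK cells of day 7, the 6 at or above 1% held 78.0% of the counts. In those 6 the macrophage marker list stood at 15496 CPM, and at 684 CPM in the rest, while the T and NK list stood at 342 and 1514 CPM. H2-Oa differed from the other genes, as it stood at 8.50 CPM (18 counts, 5.04 to 13.4) in T and NK cells at day 7, above its ambient level of 3.02 CPM. Myogenic cells stood at 97.8 and 559 CPM, and at day 7 a single barcode held 1130 of 1805 counts, without which the level was 213 CPM. The 2 myogenic barcodes at or above 1% carried the macrophage list at 4165 CPM, against 102 CPM in the rest. In neutrophils, at 1097 CPM in 708 cells of day 2, 3 barcodes held 50.6% of the counts. Smooth muscle cells stood at 120 and 148 CPM (1.24, 1.09 to 1.40). A single barcode held 207 of their 612 counts at day 2, without which they stood at 79.9 CPM, while the top barcode of day 7 held 5.74% of 401 counts. Cells with this label held the endothelial list at 4356 and 6060 CPM, above their own list at 2081 and 4422 CPM.

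As a description, the dendritic label was divided by cells with at least 3 counts of 1 marker list into type 1 classical (cDC1), type 2 classical (cDC2), mature and plasmacytoid cells, which left 29 and 24 cells with more than 1 list and 44 and 25 with none. The summed level was 46144 CPM in 74 cDC2 cells of day 2 and 76692 CPM in 40 of day 7, and 51722 CPM in 6 cDC1 cells and 61052 CPM in 22. Cells with more than 1 list were lower at day 7, with 57852 CPM at day 2 and 29975 CPM at day 7. Those with none stood at 38362 and 54963 CPM. Mature cells, marked by genes such as the chemokine receptor Ccr7, stood at 50743 CPM (13 cells) and 55703 CPM (15 cells), and plasmacytoid cells at 1482 CPM (4 cells) and 6725 CPM (19 cells). Plasmacytoid cells were thus the low group within the label, below the ambient level on both days. The mature cells of day 7 had Ciita at 10.2 CPM from 1 count, beside 113 CPM in cDC2 and 124 CPM in cDC1 cells of the same day, with summed levels of the same order. Their H2-DMa stood at 266 CPM and H2-DMb1 at 113 CPM, beside 1253 and 900 CPM in cDC2 cells. Their H2-O to H2-DM ratio was 0.341 (0.176 to 0.625, 15 to 44 counts) at day 7 and 0.0634 (13 to 205 counts) at day 2. In cDC2 cells this ratio was 0.0266 (0.020 to 0.0348) and 0.144 (0.114 to 0.180). In cDC1 cells it was 0.0746 (0.0350 to 0.142, 10 to 134 counts) and 0.146 (0.109 to 0.192), with intervals that overlap. In cDC2 cells H2-Oa stood at 35.8 CPM (24.9 to 49.8) at day 2 and 215 CPM (164 to 277) at day 7. In cDC1 cells it stood at 108 CPM (46.6 to 213) and 116 CPM (75.5 to 169), and in mature cells at 66.8 and 102 CPM from 10 counts on each day, both with overlapping intervals, so that the H2-Oa ratio of the whole label does not hold for each subset.

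Other genes of the pathway were taken from lists and counted by the 2-fold rule between days, and read against the shares of all genes given above for each class. Among transcription factors of class II promoters and presenting cells, 3 of 10 were higher and 0 lower in monocytes and macrophages, among them Rfx5, a subunit of the RFX complex (3.89, 2.25 to 6.88), and Irf8, a factor of dendritic and monocyte development (4.12). In dendritic cells 1 of 9 was higher, again Irf8 (7.50), a gene known from cDC1 and plasmacytoid cells, which numbered 6 and 4 at day 2 and 22 and 19 at day 7, and Rfx5 had 8 and 10 counts, too few to enter. The interferon gamma axis list is not reported as a whole, and nothing is read about it from the gene that follows. Irf1, the interferon-induced transcription factor, was 3.55-fold higher in monocytes and macrophages and 4.80-fold higher in dendritic cells. It was also 2.48-fold higher in endothelial cells and 4.04-fold higher in stromal cells, where class II levels were as described.

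The processing proteases and reductase moved in different directions. Ctss, the cathepsin that trims the invariant chain, stood at 1954 CPM at day 2 and 6211 CPM at day 7 in monocytes and macrophages (3.18-fold), where 2 of 7 of the list were higher and 1, Ctsl (0.458), was lower. In dendritic cells Ctss was at a ratio of 0.817, while Ctsl was higher (2.68-fold) and Ctsd (0.242) and Ifi30 (0.434), the thiol reductase of endosomes, were lower. Of the turnover list, March1, the ubiquitin ligase that removes class II from the surface, was 6.37-fold higher in monocytes and macrophages and 4.52-fold higher in dendritic cells. Cd83, which opposes it, was 3.78-fold higher in monocytes and macrophages and at a ratio of 0.802 in dendritic cells.

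Of the co-stimulatory list, 2 of 6 genes were higher and 1 lower in monocytes and macrophages, 1 of 5 higher and 1 lower in dendritic cells, and 2 of 2 in endothelial and 2 of 3 in stromal cells higher with 0 lower. Cd40 was higher in monocytes and macrophages (2.08-fold), endothelial cells (2.39-fold) and stromal cells (2.46-fold), and Cd274 in the last 2 (3.83-fold and 3.98-fold). Icosl was higher in monocytes and macrophages and in dendritic cells (7.04-fold and 4.13-fold) and Cd80 lower (0.341 and 0.105), while Cd86 did not pass the rule (0.718 and 0.523). Of 9 class I genes, 4 were higher in monocytes and macrophages (H2-K1, H2-D1, Psmb9 and B2m), 2 in dendritic cells (Nlrc5 and B2m), 5 in endothelial cells, among them the immunoproteasome subunit Psmb9 (6.40-fold) and the peptide transporter Tap1 (3.84-fold), and 5 in stromal cells, among them Nlrc5, the class I counterpart of Ciita (5.29-fold), with 0 lower in any of the 4. The median log2 ratio of the class I list was 0.59 in dendritic cells, 0.94 in monocytes and macrophages, 1.03 in endothelial cells and 1.07 in stromal cells. H2-Eb2, which shared the promoter box pair, had 3 counts at day 2 and 17 at day 7 in dendritic cells (11.7, 3.39 to 62.4).

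Across the 41 profiles of a label on a day with at least 20 cells, the genes outside the set whose level was most like that of the 10 genes summed were Pld4 (Pearson r 0.950), Cd83 (0.947), Rassf4 (0.943), Clec12a (0.939), Ly86 (0.938), Slamf9 (0.937), Arl5c (0.937) and Fgd2 (0.934), on log2(CPM + 10) and among 12455 genes with at least 100 counts. On the same scale H2-DMa reached 0.978 and H2-DMb1 0.969, next after the surface chains and Cd74, which are the bulk of the sum. Ciita reached 0.826 (rank 98), H2-DMb2 0.623 (rank 625), H2-Ob 0.529 (rank 983) and H2-Oa 0.498 (rank 1121). The profiles of a day share a library and its ambient RNA, so these are descriptions.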

How the data were processed

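Per the labels and the methods, the authors dissociated whole injured TA muscles, sequenced 10x 3′ libraries and aligned them to mm10 with Cell Ranger (3.1.0 in their processing notes, 3.0.1 in the matrix headers). They deposited raw and filtered matrices of UMI counts, matrices of estimated counts after ambient correction with SoupX (default settings, 2.9% and 2.6% of counts removed) and a cell table with labels. They removed doublets with DoubletFinder. The table does not mark which barcodes were removed, and no doublet caller was run here. Columns of per-sample values from another series numbered 0.

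Counts of the filtered matrices were used, for table barcodes with a label and at least 750 genes, at least 1000 counts and at most 30% mitochondrial counts. Left out were 43 and 31 table barcodes without a label, and 680 and 477 called barcodes that passed these limits but were not in the table. Counts were summed per label and class. All intervals are exact and at 95%: Poisson for levels, conditional binomial for ratios of counts, and Clopper-Pearson for shares. A count of 0 was set at a floor of 3 counts per group in a printed ratio, which is then written as at least that size. For the 2-fold rule any count under 3 on the lower side was raised to 3. A gene entered a comparison with 20 counts over both groups and counted as higher or lower at 2-fold, classes compared between days having at least 20 cells on each. With 1 library per group there was no test.

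Simulated counts with known changes were used as a check of the calculation. They were drawn from the Poisson model that the intervals assume, so they hold counting error and no variation between cells or mice. Changes were planted only in genes expecting at least 20 counts in each group without a change. Recovery at lower counts was not checked. The intervals held the true ratio for 96.3%, 95.5%, 96.3% and 96.0% of genes in dendritic cells, monocytes and macrophages, endothelial cells and stromal cells, and the 2-fold rule found 100% of 4-fold changes in each, 96% to 100% of 3-fold changes, and called 2.91%, 1.22%, 1.56% and 0.953% of unchanged genes in the same order.

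The 10 genes, the marker and pathway lists and the rules were chosen with earlier results of these data known. All 10 genes were named, with Rfx5, Irf1, Ctss, Ifi30, Cd83 and March1, up to 3 genes of each list with the largest ratios, markers, and the 8 genes most alike. An always-named gene and its list are not reported here. H2-Eb2 and the further class I genes were named because they are listed members. Alternatives were the corrected counts, no and stricter limits on cells (1500 genes, 10% mitochondrial), means over cells, size factors, removal of barcodes of mixed content, FAP labels alone, thinning and a threshold of 2 counts, and 4 alternatives were added after seeing the data. Python 3.11.15, numpy 2.4.6, pandas 2.3.3, scipy 1.17.1 and matplotlib 3.10.9 were used.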

Additional observations from a re-analysis of the deposited data

Results flagged for a closer look

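Barcodes that were called as cells and passed the limits on cells but are not in the cell table were used in no comparison, and they held the 10 genes at 4422.6 CPM at day 2 and 11461.4 CPM at day 7, above the ambient level of 1818 and 7515 CPM. What these barcodes are was not tested.

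H2-DMb1 and H2-DMb2 had ratios on opposite sides of 1 between days in the Dendritic label and in monocytes and macrophages, as classes. The log2 ratio of day 7 to day 2 for H2-DMb1 was -0.70 in dendritic cells and 2.94 in monocytes and macrophages, and for H2-DMb2 it was -0.55 and 2.59. The dendritic values pool subsets that differed in number between days. H2-DMb1 stood at 756 CPM on both days in type 1 classical cells and at 1112 and 900 CPM in type 2 classical cells, and H2-DMb2 at 27.0 and 62.2 CPM (2 and 14 counts) and at 111 and 124 CPM. In mature cells H2-DMb1 stood at 755 and 113 CPM and H2-DMb2 at 86.8 and 71.6 CPM (13 and 7 counts). In cells with markers of several subsets H2-DMb1 stood at 1189 and 548 CPM and H2-DMb2 at 194 and 38.8 CPM (80 and 8 counts). With 1 library on each day the difference between the classes was not tested.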

How the results depend on the processing

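With SoupX-corrected values the log2 ratio of day 7 to day 2 for the 10 genes summed was -2.47 in endothelial cells (1.45 as reported) and 0.47 in stromal cells (1.28 as reported). Single genes changed direction there too, with H2-Aa at -3.88 and H2-Eb1 at -1.70 in endothelial cells and H2-DMa at -0.27 and Ctss at -0.44 in stromal cells. The log2 ratio of the presenting classes pooled over endothelial cells became 8.57 at day 2 and 13.36 at day 7 (6.77 and 7.65 as reported), and over stromal cells 7.40 and 9.26 (6.56 and 7.60). The dendritic share of the counts became 60.2% and 14.5%, and the monocyte and macrophage share at day 7 84.1% (83.2% with no limits on cells).

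With size factors the summed log2 ratio was 0.028 in dendritic cells (0.19 as reported), 3.37 in monocytes and macrophages (3.50) and 1.04 in stromal cells. H2-Aa (-0.069), H2-Ab1 (-0.15), H2-DMa (-0.10) and Ctsh (-0.061) in dendritic cells and Ctsd (-0.059) in monocytes and macrophages changed direction. This scaling shifted all genes by -0.16 in dendritic cells, -0.13 in monocytes and macrophages, -0.13 in endothelial cells and -0.24 in stromal cells, and the part of called genes that was higher went from 61.8% to 47.9%, 60.1% to 51.7%, 61.0% to 51.1% and 65.0% to 52.4%. The calls of the 10 genes did not change.

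As means over cells the summed log2 ratios were 0.21, 3.65, 1.77 and 1.50 in dendritic cells, monocytes and macrophages, endothelial and stromal cells, with Tapbp in dendritic cells at -0.10. Without barcodes of mixed content they were 0.37, 3.65, 1.86 and 1.93, with Irf4 in dendritic cells at -0.62 and Spi1 and Cd83 in stromal cells at 0.97 and 1.97. An immune barcode was mixed with at least 2 counts summed over Col1a1, Col1a2, Cdh5, Pecam1 and Dcn. Any other barcode was mixed with at least 2 counts summed over Ptprc, Tyrobp, Fcer1g, Laptm5 and Coro1a. This removal left 147 of 170 and 89 of 145 dendritic cells, and 1051 of 1292 and 445 of 757 monocytes and macrophages. The pooled presenting ratios were then 7.30 and 7.85 over endothelial and 7.76 and 8.24 over stromal cells at day 2 and day 7. Stricter limits gave 0.21 in dendritic cells. Of the alternatives added after seeing the data, leaving out the top barcode gave 3.53 in monocytes and macrophages, 1.85 in endothelial and 2.28 in stromal cells. Leaving out barcodes with at least 2 counts of the narrower dendritic list gave 3.56 in monocytes and macrophages, as did totals without the 10 genes. The cause of these changes was not tested.

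The share of cells with at least 2 counts was 84.1% in monocytes and macrophages at day 2, 7.44% and 24.0% in endothelial and 26.4% and 42.8% in stromal cells at day 2 and day 7. After thinning the share with a count was 62.1% and 99.5%, 13.9% and 29.4%, and 9.17% and 31.1%. Of the values of classes and shares, 45 stayed within the interval of the value as reported, 41 moved beyond it and 1 changed direction. Of the values of single genes under the alternatives, 994 of 1153 stayed within the interval of the value as reported and 146 moved beyond it without changing direction. The H2-O to H2-DM ratios stayed within their intervals. Leaving out a replicate was not run, since each day is 1 library. No paired analysis was possible because each day holds 1 library. B cells rest on 29 and 13 cells, and H2-Oa in monocytes and macrophages on 2 and 25 counts.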

Other observations

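Within the endothelial and stromal classes every label with at least 10 cells was higher at day 7, and all stayed below the ambient level of 1818 and 7515 CPM. The 10 genes summed stood at 39.5 CPM at day 2 and 240 CPM at day 7 in artery cells, at 47.5 and 291 CPM in vein cells, at 62.1 and 252 CPM in endothelial stem cells (4.05-fold) and at 102 and 181 CPM in capillary cells (1.78-fold). Artery and vein cells had 5 and 13 counts at day 2. Among fibro-adipogenic progenitors (FAPs), the mesenchymal cells of muscle, the stem label stood at 48.8 and 235 CPM (4.81-fold), the adipogenic label at 75.8 and 240 CPM (3.17-fold) and the pro-remodeling label at 113 and 221 CPM (1.96-fold). Tenocytes stood at 25.3 and 197 CPM. In capillary cells 54 of 126 counts at day 2, and in pro-remodeling FAPs 267 of 395, lay in 1 barcode. Without the barcode with the most counts on each day, a choice made after seeing the data, capillary cells stood at 60 and 169 CPM (2.81-fold) and pro-remodeling FAPs at 36.8 and 191 CPM (5.20-fold).

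Cells labelled T cells stood at 139 and 1853 CPM and those labelled NK cells at 133 and 523 CPM. Muscle stem cells stood at 99.9 and 172 CPM (1.72-fold, 0.847 to 4.07, with 8 counts at day 2), and the type IIb and IIx myonuclei of day 7 at 229 and 268 CPM. No cause of these values was tested.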
